A study of Mus musculus with 6 samples.

Results

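The genes described here are those of amyloid precursor processing together with progranulin: the precursor gene App, the beta-secretase genes Bace1 and Bace2, the gamma-secretase genes Psen2, Ncstn, Aph1a and Psenen, the alpha-secretase gene Adam10, and Grn. They were taken by name, and a probe belonged to a gene where its RefSeq accession matched that symbol. Of the 9 genes 8 had a probe, 11 probes among 41174 on the array, and Adam10 was not analysed here. All 11 probes were well above background on all 6 arrays.

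The samples were primary astrocyte cultures from the cerebral cortex of C57BL/6 mouse embryos (day 18), bought from a supplier. After 3 weeks in culture 1 group was transfected with precursors of human miR-29a, miR-29b and miR-29c, mixed in the proportion 1 to 2 to 1, and the other with a negative control precursor. The dose was 80 nM, RNA was taken after 48 h, and the stated transfection efficiency was above 90%. Each group has 3 one-colour Agilent arrays of RNA extracted in triplicate. The labels do not say whether the 3 extractions came from separate cultures. The p-values therefore reflect the spread of these extracts alone, possibly no more than technical.

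The amyloid precursor protein is a membrane protein that is cut in sequence. Beta-secretase removes its outer part, and gamma-secretase, a complex of a presenilin with nicastrin, APH1 and PEN-2, then cuts the remaining stub within the membrane and releases amyloid-beta. Alpha-secretases of the ADAM family cut inside the amyloid-beta segment instead. Progranulin is a secreted and lysosomal glycoprotein that is split into granulins, and its loss is known as a cause of frontotemporal dementia. Messenger RNAs of beta-secretase 1 and of progranulin have been described as targets of miR-29 in other systems.

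The mature sequences below are those of the transfected family, shown because they are what the 2 groups of arrays differ in. They are the mouse RefSeq entries (build GRCm38.p6), with the seed, bases 2 to 8 from the 5′ end, in capitals.
mmu-miR-29a-3p: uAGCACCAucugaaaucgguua
mmu-miR-29b-3p: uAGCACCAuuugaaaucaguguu
mmu-miR-29c-3p: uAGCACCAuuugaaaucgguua
All 3 carry the seed AGCACCA. Relative to miR-29a, miR-29c differs at 1 position (C10U), and miR-29b differs at 4 of the positions they share (C10U, G18A, U21G and A22U), counted from the 5′ end. Mature miR-29a lies at chr6:31062673-31062694 on the minus strand. Mature miR-29c lies at chr1:195037600-195037621 on the plus strand. The same mature miR-29b comes from a copy beside each of them, at chr6:31063025-31063047 (minus) and chr1:195037091-195037113 (plus).

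The share of probes well above background was 61.9% to 66.8% per array, and 0 spots of gene probes were saturated. The 3 miR-29 arrays shared slide 1 with control replicate 1, while control replicates 2 and 3 were on slide 2, so differences are also given on slide 1 alone (with no test) where they change a statement. Of the 12 astrocyte markers 11 were above background, among them Gfap, and 7 of these rose and 1 fell. With the arrays scaled to their spike-in RNAs 5 rose and 1 fell. The summed signal of the astrocyte markers was 55778 to 61607 on the miR-29 arrays and 38937 to 40710 in the controls. Over all genes and transcripts 35.3% were higher and 22.8% lower at an adjusted p under 0.05 (15.1% and 38.5% with spike-in scaling). Markers of fibroblasts, meningeal and mural cells summed to 333940 to 360500 after miR-29 and 252780 to 279810 in the controls (7 of 11 rose, 2 fell), and neuronal markers to 3969 to 4097 against 4996 to 5359 (6 of 12 fell, 3 rose). Most of the former sum came from Acta2, Tagln and Cnn1, with means of 135120, 93053 and 52042 after miR-29. In the controls their means were 88168, 58188 and 20522. Pdgfrb and S100a4 fell, and Des, counted as a rise, was well above background on 0 of 3 control arrays. With spike-in scaling 6 of the 11 rose and 2 fell. The part of these markers in the results below was not tested. Signals below are processed signals scaled so that the 75th percentile of each array is 556. In bulk cultures such as these, fewer cells of a type and less RNA per cell cannot be told apart.

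Most of the secretase genes were lower after miR-29, while the precursor gene itself did not pass the test. The lowest member value was that of 1 of the 2 Grn probes, at 34.5% of control, while the other Grn probe did not pass. Counted by the brightest probe, 5 of the 8 genes fell (Bace1, Bace2, Psen2, Ncstn and Aph1a), 1 rose (Psenen) and 2 did not pass the test (App and Grn). Over all 19740 genes and transcripts 22.8% were lower and 35.3% were higher at the same threshold, an adjusted p under 0.05. The median log2 difference (miR-29 minus control) was -0.28 over the 8 genes and 0.068 over all genes. With the arrays scaled to their spike-in RNAs in place of the 75th percentile, the median over all probes moved from 0.072 to -0.18, 38.4% of probes were lower and 14.9% higher, and 38.5% of genes were lower and 15.1% higher. On that scale 6 of the 8 member genes fell, App among them, and Psenen and Grn did not pass. By probe, on the 75th percentile, 7 of 11 fell and 1 rose, beside 22.7% lower and 35.3% higher of all 26427 probes tested. The groups did not overlap at 10 of the 11 probes, beside 66.1% of all probes: miR-29 was lower at 9 of them and higher at 1, beside 26.3% and 39.8%.

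**Figure D1:**
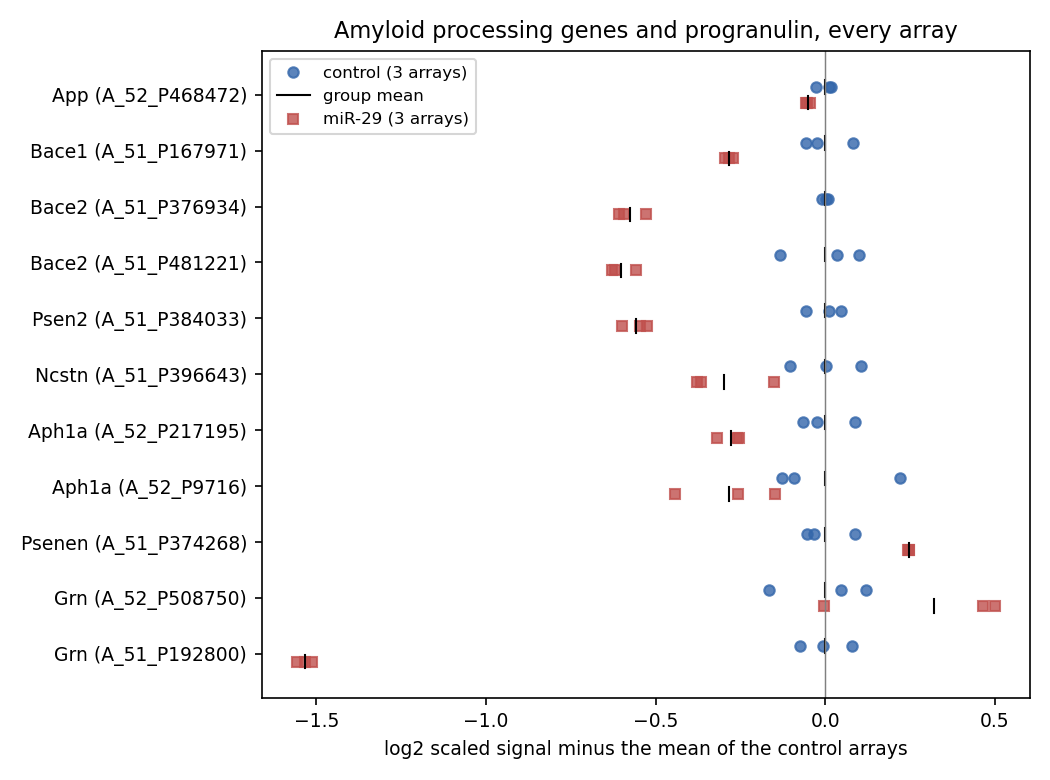
Each point is 1 array, plotted as log2 scaled signal minus the mean of the 3 control arrays, for the 11 probes of the 8 genes; circles are control, squares are miR-29, and black ticks are group means. The miR-29 arrays lie to the left of the controls at 9 probes, to the right at Psenen, and overlap them at the Grn probe A_52_P508750.

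The substrate, App, was measured by 1 probe (A_52_P468472) printed as 10 spots on each array. Its scaled signal was 3318, 3319 and 3345 after miR-29 and 3386, 3487 and 3473 in the controls, each in the order of replicates 1 to 3, as for all genes here. The groups did not overlap, but the gap was small. The difference was -0.052 on the log2 scale (SE 0.0438, adjusted p = 0.342), with a 95% interval of -0.16 to 0.055. The 10 spots of an array varied by 2.91% to 4.27% (coefficient of variation). On the spike-in scale App passed (-0.30, adjusted p = 0.0139).

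Bace1, the main beta-secretase of the brain, was modestly lower. Its probe (A_51_P167971) read 3126, 3076 and 3102 after miR-29, against 3995, 3716 and 3631 in the controls. Every miR-29 array was below every control array, and the miR-29 arrays lay closer together than the controls. The mean was 82.1% of control; in log2 units Bace1 fell by 0.28 (SE 0.0543, limma adjusted p = 0.00544 with 3 arrays per group). Of all probes tested, 23.3% had a lower log2 difference than Bace1.

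Bace2, a homologue of Bace1 that also cuts the amyloid precursor within its amyloid-beta segment, also fell. Its brighter probe (A_51_P376934) read 137, 143 and 135 after miR-29, against 205, 206 and 207 in the controls. The dimmer probe (A_51_P481221) read 53.2, 53.0 and 55.6 after miR-29, against 83.8, 87.6 and 74.7 in the controls. At both probes the groups were well separated. The brighter probe fell by 0.58 (SE 0.0470, adjusted p = 0.000216) and the dimmer fell by 0.60 (SE 0.0721, adjusted p = 0.000882). With normexp background correction the dimmer probe fell by 0.31 (adjusted p = 0.0135).

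Of the 4 member genes for gamma-secretase subunits 3 fell and 1 rose; Aph1b, which is no member, is given with the other secretase genes. Psen2 encodes presenilin 2, a catalytic subunit, and had the largest fall of the 4. Its probe (A_51_P384033) read 1518, 1541 and 1463 after miR-29, against 2290.2, 2232 and 2128 in the controls. Every miR-29 array was far below every control array, at 68.0% of control on average. In log2 units it fell by 0.56 (SE 0.0524, adjusted p = 0.000359).

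Ncstn encodes nicastrin, which binds the substrate's free end. Its probe (A_51_P396643) read 179.6, 180.7 and 210.2 after miR-29, against 216.8, 233 and 250.7 in the controls. The groups did not overlap, but miR-29 replicate 3 lay close to control replicate 1. It fell by 0.30 (SE 0.0882, adjusted p = 0.0281). It was past the test with neither slide as a block (-0.19, adjusted p = 0.218) nor all probes tested unfiltered (adjusted p = 0.0663), and it was lost without miR-29 replicate 1 (adjusted p = 0.0901), miR-29 replicate 2 (0.0910), control replicate 2 (0.0712) or control replicate 3 (0.0852).

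Aph1a encodes a scaffold subunit of the complex. Its brighter probe (A_52_P217195) read 499, 522 and 519.8 after miR-29, against 612, 595 and 662 in the controls. Its dimmer probe (A_52_P9716) read 323, 368 and 397 after miR-29, against 412, 402 and 512 in the controls. At neither probe did the groups overlap, although at the dimmer probe miR-29 replicate 3 came within a few units of control replicate 2. The brighter probe fell by 0.28 (SE 0.0585, adjusted p = 0.00799). The dimmer probe was at -0.28 with a larger error and did not pass (SE 0.121, adjusted p = 0.0887, 95% interval -0.58 to 0.012). Without control replicate 3 it was at -0.17, and the brighter probe at -0.23. With slide as a block the brighter probe missed the test as well (-0.25, adjusted p = 0.0525).

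Psenen encodes PEN-2, the smallest subunit of the complex, and was the only member gene to rise, which held on the 75th percentile scale but not on the spike-in scale. Its probe (A_51_P374268) read 4299, 4312 and 4307 after miR-29, against 3862, 3496 and 3548 in the controls. The miR-29 arrays were nearly identical and all above the controls. The rise was 0.25 on the log2 scale (SE 0.0557, adjusted p = 0.0107), to 119% of control. Of all probes tested, 34.2% had a higher log2 difference than Psenen. On the spike-in scale the difference was -0.0045 (adjusted p = 0.960), and the rise missed the test with slide as a block (0.16, adjusted p = 0.0643) or median centring (0.25, adjusted p = 0.0670).

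**Figure D2:**
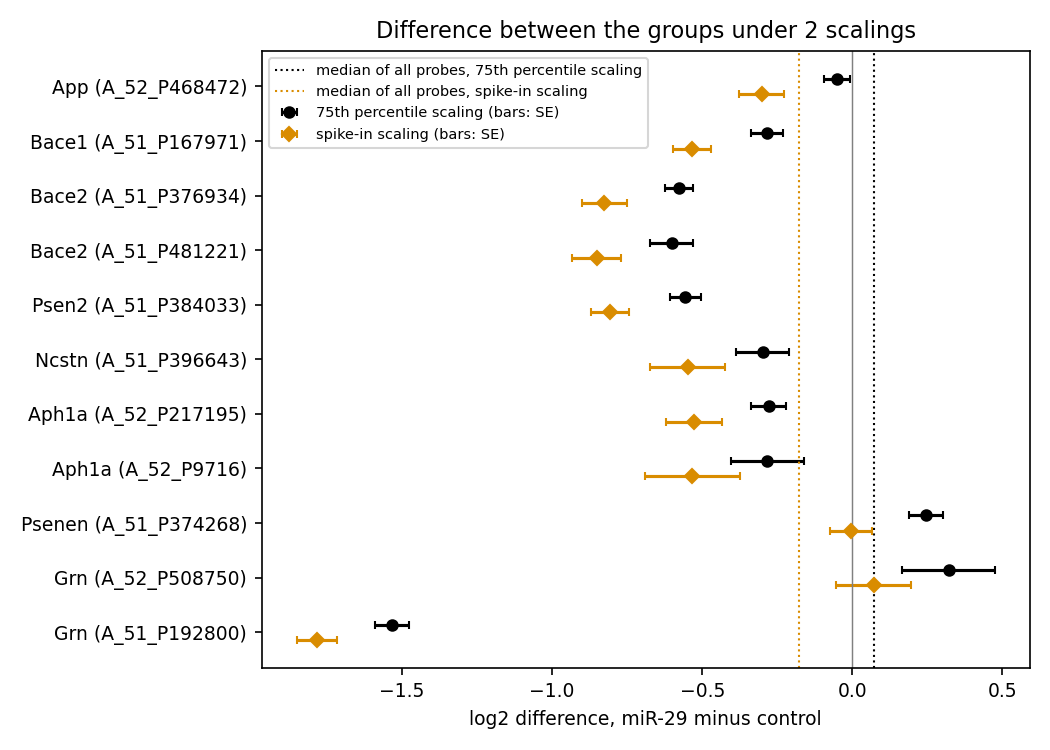
Log2 difference, miR-29 minus control, for each of the 11 probes, with bars and scaling as labelled in the figure. Psen2, Bace2 and the Grn probe A_51_P192800 lie furthest below 0. The 95% intervals from limma given in the text, which are not the plotted bars where these are labelled SE, include 0 for 3 probes. These are the App probe, the dimmer Aph1a probe and the Grn probe A_52_P508750.

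Grn, which encodes progranulin, had 2 probes whose differences had opposite signs, and 1 of them passed the test. Probe A_51_P192800 read 3619, 3555 and 3665 after miR-29, against 11062, 10421 and 9944 in the controls. The groups were far apart, and all 3 miR-29 arrays lay within a narrow range. The mean was 34.5% of control; in log2 units this probe fell by 1.53 (SE 0.0565, adjusted p = 3.00e-05), and 1.01% of all probes tested had a lower difference. This probe was past the test under every alternative that gave a test, among them spike-in scaling (-1.78). On slide 1 alone, which gives no test, the difference was -1.61.

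The other Grn probe, A_52_P508750, did not pass. It read 151510, 147979 and 106976 after miR-29, against 116370, 110663 and 95565 in the controls. The groups overlapped, since miR-29 replicate 3 lay below control replicates 1 and 2. The difference was 0.32 (SE 0.154, adjusted p = 0.119, 95% interval -0.054 to 0.70). Without miR-29 replicate 3 it was 0.48 and past the test (adjusted p = 0.0136), and on the spike-in scale it was 0.071 (adjusted p = 0.654).

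**Figure D3:**
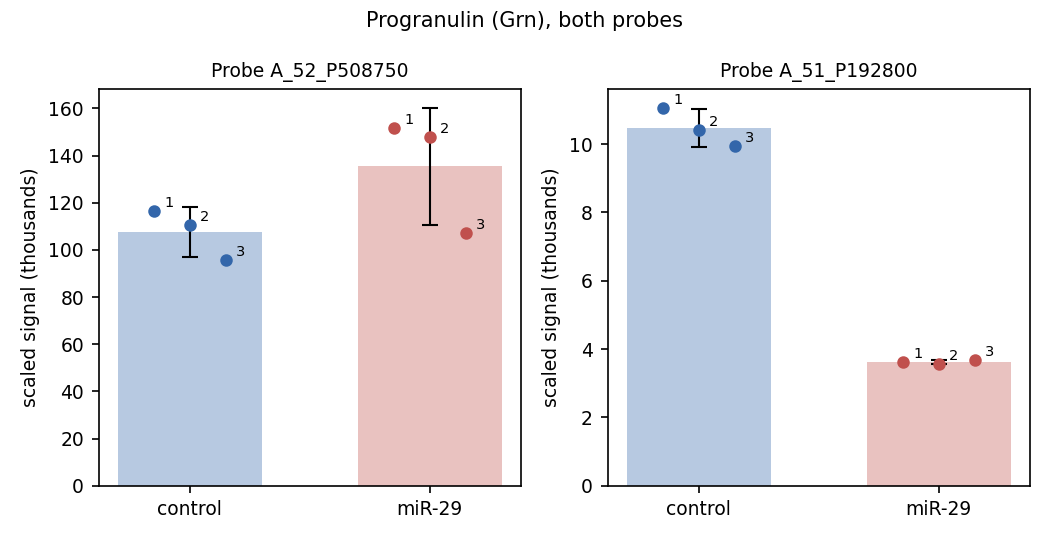
Scaled signal of the 2 Grn probes on the 6 arrays by group, with axes and bars as labelled in the figure. The ranges given here are those of single arrays. Probe A_51_P192800 drops from 9944 to 11062 on the control arrays to 3555 to 3665 on the miR-29 arrays, while probe A_52_P508750 lies between 95565 and 151510 with overlapping groups.

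The 2 Grn probes differed by 1.86 on the log2 scale in their response. Among 4995 genes with 2 or more probes the median spread was 0.22, and 0.541% of them (27 genes) had a spread at least as wide. The probes of Bace2 differed by 0.025 and those of Aph1a by 0.0046. The signal of A_52_P508750 was read from the scanner's low-gain scan on all 6 arrays, as were 483 probes (1.83% of those tested). Their median difference was 0.18, with 68 lower and 234 higher. Their median replicate SD was 0.0660, against 0.224 for this Grn probe. Whether the low-gain scan has a part in the difference between the Grn probes was not tested. Both probes are assigned to the same RefSeq accession, the files give no probe sequence, and which transcripts each probe detects was not analysed here.

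**Figure D4:**
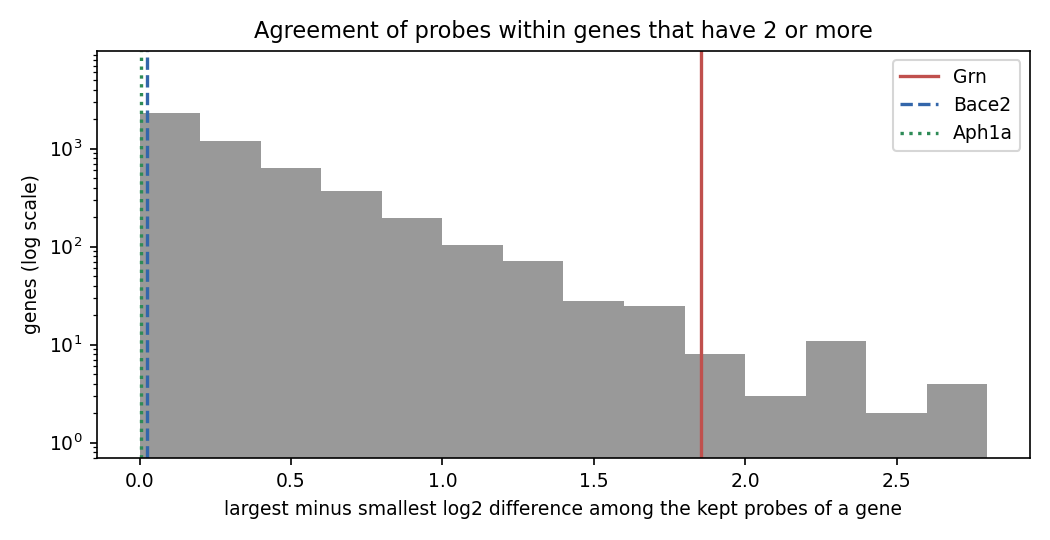
Histogram of the spread, in log2 units, between the differences of the probes of each of 4995 genes with at least 2 probes. The probes of Aph1a (0.0046) and Bace2 (0.025) lie at the left end, and those of Grn (1.86) far out in the right tail.

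Markers of microglia, cells that express progranulin strongly in brain, were mostly at background. Of 14 markers 13 had a probe and 5 were tested, of which 2 fell and 1 rose. Aif1, Cx3cr1, C1qa, Ptprc, Tyrobp, Trem2 and Ly86 were not well above background on any array. The 5 tested markers, P2ry12, Csf1r, Tmem119, C1qb and Fcer1g, were well above background on every array. The summed signal of the list was 1892 to 2047 on the miR-29 arrays and 2561 to 2789 in the controls. Most of that sum was Tmem119, with a mean of 1761 after miR-29 and 2378 in the controls, while the group means of the other 4 tested markers were 20.4 to 96.8. The median log2 difference of the 5 was -0.38, and 0.033 on slide 1 alone, where C1qb and Fcer1g, which did not pass, were at 0.066 and 0.033. The list's part in the Grn difference was not tested.

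By the root mean square difference of centred log2 values over the 6 arrays, the genes most like App among 13711 were Cpped1 (0.0090), Eif1 (0.011) and Ssu72 (0.015). Those most like Bace1 were Tbc1d9b (0.0092), Gtpbp2 (0.015) and Supt4a (0.017). Those most like the brighter Grn probe were Unc5b (0.044), Fsd1l (0.045) and Krtap19-1 (0.055), a looser match.

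Among 29 tested genes of other secretase subunits, homologues and regulators, 12 fell (41.4%) and 5 rose (17.2%), with a median difference of -0.13. The shares to set beside this list and those below are those over all genes and transcripts. They were 22.8% lower and 35.3% higher (38.5% and 15.1% on the spike-in scale). Adam17, an alpha-secretase and the main sheddase of tumour necrosis factor, fell by 1.54 (SE 0.0548, adjusted p = 2.84e-05, -1.54 at its other probe as well). Adam19, a related metalloprotease, fell by 1.38 (-1.22 at its other probe). Tspan5, a tetraspanin that escorts ADAM10, fell by 0.72, while Tspan33 of the same group rose by 1.28 and Timp3, an inhibitor of ADAM and matrix metalloproteases, rose by 0.55. Aph1b, the alternative APH1 subunit, was at 0.27, with -0.13 and 0.46 at its other probes. Its rise is uncertain, since it was at 0.020 on the spike-in scale and did not pass there. The paralog Aph1c is nearly identical, and whether the Aph1b probes also detect it was not tested. On the spike-in scale 20 of the 29 were lower and 2 higher.

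Picked after their values were seen, 3 further ADAM10 escorts also fell, with differences of -0.65 for Tspan14, -0.49 for Tspan15 and -0.38 for Tspan17. So did the iRhom genes Rhbdf1 (-0.62) and Rhbdf2 (-0.57), whose products bring ADAM17 to the cell surface. These calls held on the spike-in scale.

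Of 45 tested genes for relatives, adaptors and sorting factors of the precursor, 9 fell (20%) and 17 rose (37.8%), with a median of 0.079. The adhesion protein gene Spon1, whose product binds the precursor, fell by 0.78 (-0.33 at its other probe), and the endocytic genes Snx33 fell by 0.72 and Ehd1 fell by 0.61. Flot1, a lipid raft protein gene, rose by 0.68, the adaptor Apba2 by 0.66 and the reticulon Rtn1 by 0.63 (0.31 at its other probe). Picked after their values were seen, Gga1, Gga2 and Gga3, sorting adaptors that bind beta-secretase, rose by 0.36 to 0.42. On the spike-in scale none of these 3 GGA genes was past the test (0.11 to 0.17), and of the 45 genes 18 were lower and 6 higher.

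Of 32 tested genes for amyloid-beta degradation and clearance 9 fell (28.1%) and 11 rose (34.4%), with a median of 0.046 (17 and 4 on the spike-in scale). Mmp2, a gelatinase, fell by 2.63 and its activator Mmp14 fell by 1.06 (-1.31 at its other probe). Plau, the urokinase gene, was at -2.44 but was above background on only 2 of 3 miR-29 arrays; it missed the test with slide as a block (-1.64, adjusted p = 0.171), without control replicate 2 (adjusted p = 0.0550) and without control replicate 3 (0.0578). Ide, which encodes an amyloid-beta degrading protease, rose by 0.60 (0.22 at its other probe). The endocytic receptor gene Lrp2 rose by 0.60 (0.44, 0.66 and 0.35 at its other probes). Ager, a receptor gene, was at 1.02, and at 0.33 with normexp background correction (adjusted p = 0.0614).

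Of 27 tested progranulin partners and processing genes 10 fell (37.0%) and 8 rose (29.6%), with a median of 0.032 (15 and 1 on the spike-in scale). The transmembrane glycoprotein gene Gpnmb fell by 1.20, Mmp14 fell as above, and Slpi, whose product shields progranulin from cleavage, fell by 1.18. Sumf1, a sulfatase activator gene, rose by 0.63. The lysosomal regulator Tfe3 was at 0.29 (0.23 at its other probe, and 0.044 on the spike-in scale). Prtn3, a protease gene that cleaves progranulin, was at 0.57 and missed the test with normexp (0.19, adjusted p = 0.236), on the spike-in scale (0.32, adjusted p = 0.109), with no filter (0.0549) and with slide as a block (0.106). Its call was also lost without any 1 of miR-29 replicates 1 and 2 and control replicates 1 and 3 (adjusted p up to 0.0739). Picked after its value was seen, Psap, which encodes the progranulin carrier prosaposin, fell by 0.32 (-0.37 at its other probe; -0.18 on slide 1 alone).

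Of 46 tested lysosomal genes 18 fell (39.1%) and 13 rose (28.3%), with a median of -0.024 (30 and 2 on the spike-in scale). The cathepsin gene Ctsf fell by 1.11, the glycosidase gene Naglu fell by 0.91, and Manba, of another glycosidase, fell by 0.65 (-0.86 at its other probe). Lipa, the acid lipase gene, rose by 0.79 and the sialidase gene Neu1 by 0.70 (0.61 at its other probe). Asah1, the acid ceramidase gene, was at 0.43 (0.18 on the spike-in scale, adjusted p = 0.138). Picked after its value was seen, Ctsk, a cathepsin gene, was below background after miR-29 and at least 4.41-fold lower. This bound sets the control mean against the array's lowest signal well above background, or against the Ctsk signal where that was higher. Ctsk was kept for testing through the control arrays alone. Its call, counted among the 18, is therefore no support for the fall.

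Of 48 tested substrates of gamma-secretase and beta-secretase 18 fell (37.5%) and 14 rose (29.2%), with a median of -0.052 (27 and 6 on the spike-in scale). Scn2b, a sodium channel subunit gene, fell by 1.13 and the chemokine gene Cx3cl1 fell by 1.08. Notch3 and Notch1, receptors whose signal gamma-secretase releases, rose by 1.95 and 0.81, and the ephrin receptor gene Epha4 rose by 1.60 (1.10 at its other probe). Csf1r, which is also a microglia marker, was at -1.39 (0.37 at its other probe). Its call was lost with slide as a block (-0.72, adjusted p = 0.176), without miR-29 replicate 1 (0.0507), control replicate 2 (0.0565) or control replicate 3 (0.0599), and as the mean of its probes (-0.51, adjusted p = 0.0614).

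**Figure D5:**
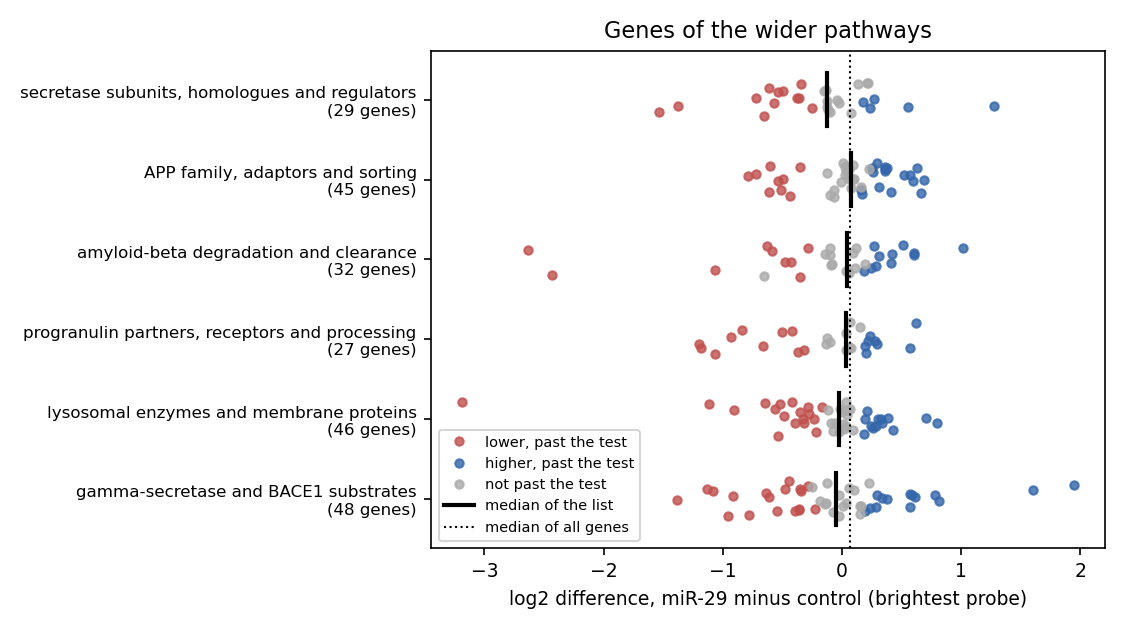
Each point is 1 tested gene, plotted as log2 difference (miR-29 minus control) by list, coloured by whether it fell, rose or did not pass the test. All 6 lists spread to both sides of 0, with list medians between -0.13 and 0.079.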

How the data were processed

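RNA of 6 extracts (3 miR-29, 3 control) was hybridised to one-colour Agilent 4x44K arrays. Per the file headers, spot intensity was extracted by the authors with Feature Extraction 10.7.3.1 as a background-subtracted processed signal on a linear scale, on the mm9 design. The deposited value table holds that intensity times 1 factor per array (2.63 to 3.43), linear and not centred, by a rule not given in the sources used here. The table's medians were 149.3, 155.4 and 148.8 (miR-29) and 146.3, 164.8 and 162.2 (control). There were 0 columns of other samples.

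From the processed signal, values under 1 were set to 1, log2 was taken and the array's 75th percentile over non-control spots subtracted. Control spots and spots with an outlier flag were not used, and repeat spots of a probe were averaged. Probes well above background on each array of either group were tested (26427 of 41174). RefSeq accessions were matched, without version, to a GRCm38.p6 table for names only, since the array design is on another build: 26933 probes matched 1 gene and 14241 none. A gene is counted by its brightest kept probe. Groups were compared with lmFit and eBayes of limma 3.58.1 (R 4.3.3). Tests were two-sided and adjusted by Benjamini-Hochberg over all kept probes, with a threshold of 0.05; tables were made with pandas 2.3.3. The procedure was tested on simulated data. The number of arrays limits the precision.

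The members and the gene lists were chosen with earlier results of these data known. Genes named are the members, the 3 largest falls and 3 largest rises past the threshold of each list (brightest probe, not at background throughout either group), the 3 genes most like App, Bace1 and Grn, and microglia markers; others are said to be picked after their values were seen. Alternatives were other scalings (median, quantile, spike-in), normexp with an offset of 50, the deposited table, other filters, slide or replicate number as a block, another variance model, another rule for several probes, and each array left out. Normexp used the median spot signal.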

Additional observations from a re-analysis of the deposited data

How the results depend on the processing

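The falls of Bace1, Bace2, Psen2 and the Grn probe A_51_P192800 stayed past the test under every alternative that gave a test. Slide 1 alone gives none. With slide as a block the difference is the same as on slide 1 alone. It rests on control replicate 1, and the other controls enter only its error. Psenen turned to -0.0045 on the spike-in scale (adjusted p = 0.960), and Grn, at 0.32 by its brightest probe, was -0.61 as the mean of its probes (adjusted p = 0.00223). With slide as a block 3 member genes were lower. Higher member genes, and likewise higher member probes, numbered 0 with median centring, spike-in scaling or slide as a block, 2 with the replicate block, and 1 to 2 with single arrays left out (2 without miR-29 replicate 3). At an unadjusted limma p under 0.05 median centring and slide as a block each had 1 and spike-in scaling had 0. On the spike-in scale 10142 probes were lower and 3948 higher. The lists then had 20 lower and 2 higher (secretase genes), 18 and 6 (sorting), 17 and 4 (clearance), 15 and 1 (progranulin partners), 30 and 2 (lysosomal), and 27 and 6 (substrates). Higher secretase genes were 3 with median centring or no filter, 8 with trend and robust variance, and 3 to 5 with single arrays left out (3 without miR-29 replicate 3 or control replicate 2). Higher progranulin partners were 3 with median centring, 4 with quantile normalization, 5 with no filter, 2 with slide as a block, and 5 to 8 with single arrays left out (5 without miR-29 replicate 1 or 2 or control replicate 2 or 3). The cause of these changes was not tested. Same-numbered arrays correlated at 0.099 to 0.27 in their deviations from the group means, and 6 of 6 arrays correlated best with their own number, a hint from the data; since not all pairs passed 0.1, the numbers were not taken to pair the arrays. With the replicate block 6096 probes were lower and 9431 higher, beside 5992 and 9335 without it, and the brighter Grn probe and the dimmer Aph1a probe passed the test (adjusted p = 0.0224 and 0.0295). Groups of 3 were not tested for outlying arrays, and signals near background limit what dim probes can show.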
